A study of Mus musculus with 6 samples.

Results

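Scavenger receptors are cell surface or lysosomal proteins with which macrophages take up modified lipoproteins, microbes, dead cells and protein complexes. They are grouped by structure rather than by ancestry. Marco and Msr1 form collagen-like trimers, Cd36 and Scarb1 belong to a family of membrane proteins that bind lipids and lipoproteins, Olr1 and Mrc1 carry lectin domains, Cd68 is a heavily glycosylated protein of late endosomes and lysosomes, Stab1 is a large endocytic receptor, and Cd163 takes up haptoglobin-bound haemoglobin. In bone marrow cultures the same precursors give rise to macrophages, which carry such receptors, and, after RANKL, to osteoclasts.

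Levels of these 9 genes were measured in RNA from BMMs, macrophages grown with M-CSF from the bone marrow of male C57BL/6 mice aged 6 to 8 weeks. The 9 genes are rows of a deposited table of 23504 genes, found by symbol: Marco (ENSMUSG00000026390), Msr1 (ENSMUSG00000025044), Cd36 (ENSMUSG00000002944), Scarb1 (ENSMUSG00000037936), Olr1 (ENSMUSG00000030162), Mrc1 (ENSMUSG00000026712), Cd68 (ENSMUSG00000018774), Stab1 (ENSMUSG00000042286) and Cd163 (ENSMUSG00000008845). The list was drawn up with the results of this comparison known, because Marco had the largest log2 fold change of any protein-coding gene tested. The scale of that fold change and the level required for testing are given below, and Cd163 did not reach that level. Because of this choice, no p-value is printed for the 9 genes. Where one is named as called, meaning past the limit used for all genes, this is a description and no test of that gene. The 6 libraries were made after 3 days, from 3 cultures treated with DASA-58, a small molecule activator of the glycolytic enzyme PKM2, and 3 treated with DMSO, its solvent. The study's account of its results has RANKL added to both groups, whereas its methods name RANKL for the DASA-58 group alone and spell the compound DASA-48 there. The DASA-58 concentration for this experiment is not given in the sources used here. The replicates are not tied to separate animals in the labels, so errors and p-values cover the spread between these libraries, which may be technical. The values are FPKM, fragments counted per 1000 bases of gene and scaled to the fragments of the library. Levels are thus adjusted for gene length and for depth. Comparisons between libraries depend on the scaling, and results under other scalings are given at the end. The libraries held 18191560 to 18968556 fragments.

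In DMSO the receptors spanned a wide range of levels. Cd68 was the most abundant at 871 ± 26.5 FPKM (SD, n = 3) and ranked 37 of the 10965 genes that reached a mean of 1 FPKM. Cd36 followed at 347 ± 13.5 FPKM (SD, n = 3, rank 128) and Marco at 109 ± 4.26 FPKM (SD, n = 3, rank 478). Msr1 lay at 81.2 ± 3.52 FPKM (SD, n = 3, rank 640). Mrc1 at 67.3 ± 2.57 FPKM and Stab1 at 65.3 ± 1.58 FPKM (SD, n = 3 each) were the only neighbours in this order whose ranges overlapped, and they overlapped with DASA-58 too. Scarb1 was far lower at 12.6 ± 0.494 FPKM (SD, n = 3, rank 4180). Cd163 and Olr1 stayed below 1 FPKM in every library, at 0.298 ± 0.0569 and 0.0302 ± 0.0147 FPKM (SD, n = 3 each). Thus 7 of the 9 genes were expressed above 1 FPKM in the DMSO cultures. The same libraries also held osteoclast markers, at a summed level of 778 to 833 FPKM. The order of the 9 genes was the same with DASA-58.

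With DASA-58 most of the receptors stood at a higher level, and none at a lower one that exceeded the spread between libraries. Of the 7 receptors that averaged 1 FPKM or more, 6 were higher at an adjusted p under 0.05, the limit used throughout (limma on log2(FPKM + 1), with all 10965 genes in the adjustment), against 4.24% of all genes tested. In the other direction, 0 members were called lower with limma, against 7.28% of all genes tested. At an unadjusted p under 0.05, 0 were lower too, and the share of all genes at that limit is not given here. With voom weights 0 were lower, where 1119 of 9572 genes were. Because the list was chosen with these results known, nothing is read from these contrasts. The median log2 fold change of the 7 was 0.34, where the median over all genes tested was -0.03. In 7 of the 9 genes every DASA-58 library lay above every DMSO library. Among the tested genes this held for 6 of 7, against 11.8% of all genes tested (21.6% lay apart in the lower direction, 33.4% in either, and 11.5% were called in either). Replicates of the 7 genes agreed closely, with coefficients of variation of 2.42% to 4.33% in DMSO and 2.15% to 4.62% in DASA-58. The medians over all genes tested were 4.94% and 4.38%. Those medians take in genes down to a mean of 1 FPKM, and genes at the receptors' levels were not compared separately.

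**Figure D1:**
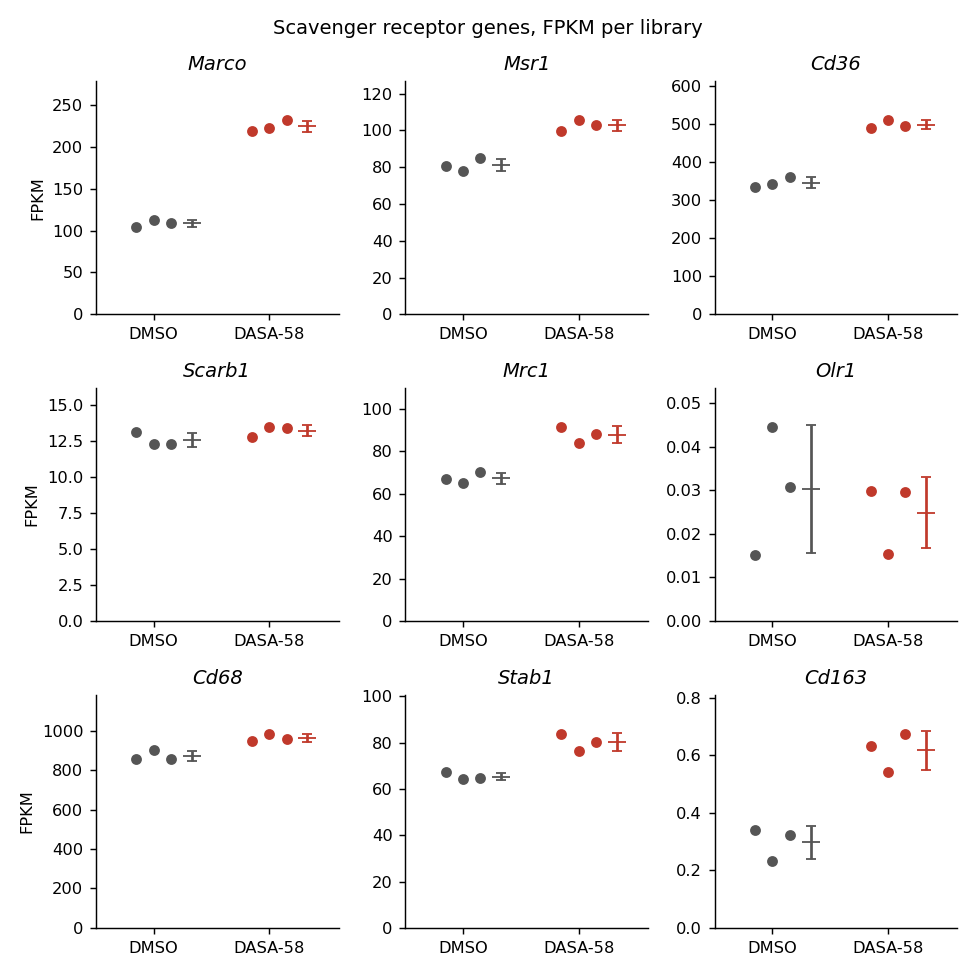
FPKM of each receptor gene (vertical axes, linear from 0) in the 3 DMSO and the 3 DASA-58 libraries, one point per library, with the mean and SD beside the points. The groups are apart in every panel except those of Scarb1 and Olr1, and the Olr1 points stand for 1 to 3 fragments each.

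Marco, a trimeric receptor with a collagen-like stalk that binds bacteria and particles, had the largest log2 fold change on the log2(FPKM + 1) scale among the tested genes. Its level was 104, 113 and 109 FPKM in DMSO replicates 1, 2 and 3 and 219, 223 and 232 FPKM in DASA-58 replicates 1, 2 and 3. The DASA-58 libraries were thus all far above the DMSO libraries, and the groups did not overlap. The mean rose from 109 ± 4.26 to 225 ± 6.87 FPKM (SD, n = 3 each), a ratio of 2.07 and a log2 fold change of 1.04 (SE 0.037). These values rest on 3680 to 4090 fragments per DMSO library and 7801 to 8479 per DASA-58 library. Marco ranked 1 of all 10965 genes by log2 fold change, non-coding genes included. Just behind it among protein-coding genes stood Ednrb, the endothelin receptor type B, with a log2 fold change of 0.98 (SE 0.035).

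Msr1, the founding scavenger receptor of macrophages and the structural relative of Marco, differed less. It was at 80.5, 78.2 and 85.1 FPKM in the DMSO libraries and at 99.8, 106 and 103 FPKM in the DASA-58 libraries, replicates 1 to 3 in each case. The groups did not overlap. The ratio of the means was 1.27 and the log2 fold change 0.34 (SE 0.038), a smaller value than that of Marco. Marco stood at 1.34 ± 0.0898 times the level of Msr1 in DMSO and at 2.18 ± 0.0741 times with DASA-58 (SD, n = 3 each).

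Of the CD36 family, Cd36 was called and Scarb1 was not, and the difference between their changes was not tested. Cd36, which binds oxidised LDL and long-chain fatty acids, was at 336, 342 and 362 FPKM in the DMSO libraries and at 489, 511 and 497 FPKM in the DASA-58 libraries. All DASA-58 values were above all DMSO values, with a ratio of the means of 1.44 and a log2 fold change of 0.53 (SE 0.034). In absolute terms Cd36 gained more than any other of the 9 genes, 153 FPKM. Scarb1, the HDL receptor SR-BI, was at 13.1, 12.2 and 12.3 FPKM in DMSO and at 12.7, 13.5 and 13.4 FPKM with DASA-58. Here the groups overlapped, since DMSO replicate 1 exceeded DASA-58 replicate 1, and Scarb1 was not called (log2 fold change 0.07, SE 0.042). Cd36 was 27.6 ± 1.94 times as abundant as Scarb1 in DMSO and 37.8 ± 0.658 times with DASA-58 (SD, n = 3 each).

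Mrc1, the mannose receptor, which internalises mannosylated glycoproteins and collagen fragments, was at 66.9, 64.9 and 70.0 FPKM in DMSO and at 91.6, 83.7 and 88.3 FPKM with DASA-58. The groups were apart, with a ratio of 1.31 and a log2 fold change of 0.38 (SE 0.042). Olr1, the lectin-type receptor LOX-1 for oxidised LDL known mainly from endothelial cells, was at 1, 3 and 2 fragments in the DMSO libraries and at 2, 1 and 2 fragments in the DASA-58 libraries. All of these are at or below the 3 fragments that a count of 0 allows, which corresponds to 0.0443 to 0.0462 FPKM for this gene and covers counting error only. Olr1 was therefore not detectable above that limit at this depth, and no ratio is given.

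Stab1, stabilin-1, which clears acetylated LDL, extracellular matrix proteins and phosphatidylserine-bearing cells, was at 67.1, 64.2 and 64.6 FPKM in DMSO and at 83.9, 76.5 and 80.2 FPKM with DASA-58. These groups did not overlap either (ratio 1.23, log2 fold change 0.29, SE 0.039). Stab1 was the only one of the 9 genes whose exons overlap another gene in GENCODE mouse release 21. The overlap is 112 bases, or 1.09% of its exon length, with Nt5dc2 on the opposite strand, which had a mean of 135.0 FPKM, and the use of strand in counting is not given in the sources used here. Cd68, a marker of macrophages and osteoclasts alike, was at 857, 901 and 854 FPKM in DMSO and at 945, 985 and 957 FPKM with DASA-58. The groups were apart, but the difference was the smallest of the 6 that were called (ratio 1.11, log2 fold change 0.14, SE 0.030). That call was lost under 7 of 19 alternatives, among them leaving out DMSO replicate 1 or 3 or DASA-58 replicate 2 or 3.

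Cd163 was below the limit of 1 FPKM and was outside the main comparison, and its groups did not overlap. It had 34, 24 and 32 fragments in the DMSO libraries and 65, 54 and 70 fragments in the DASA-58 libraries, or 0.339, 0.233 and 0.322 FPKM against 0.632, 0.544 and 0.676 FPKM. Every DASA-58 library exceeded every DMSO library. The ratio of the means was 2.07, at a level far below that of Marco. On the log2(FPKM + 1) scale, which compresses low values, the difference was 0.32 when all genes were kept, and Cd163 was not called. On recovered fragments with voom weights and at least 10 fragments, a choice made after the data were seen, the difference was 1.06. There Cd163 was called, which made 7 members called higher, where 679 of 11602 genes were called higher. The ratio of the means of Cd163 was thus close to that of Marco.

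**Figure D2:**
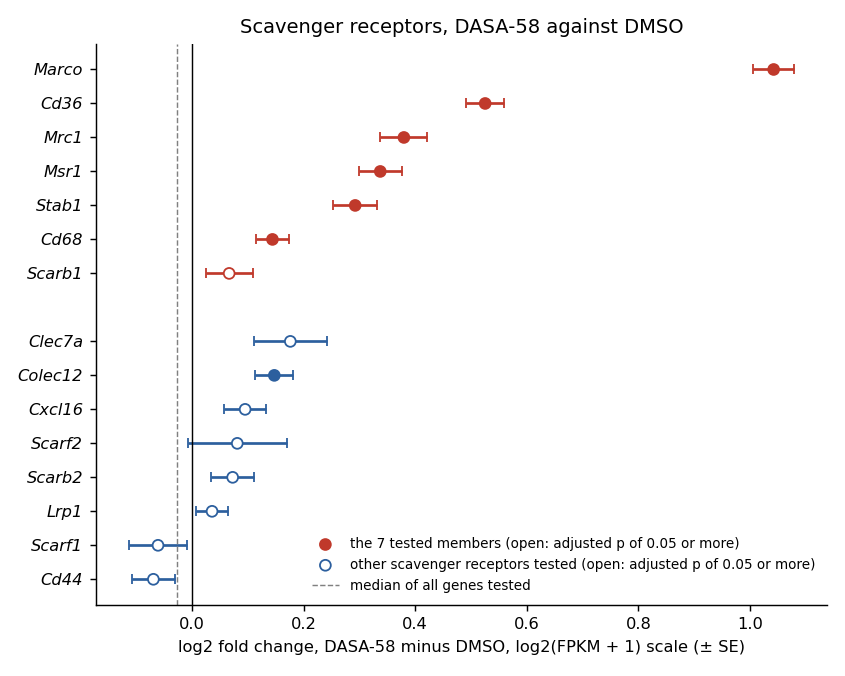
Log2 fold change, DASA-58 minus DMSO on the log2(FPKM + 1) scale, with its SE, for the 7 tested members (red) and 8 other tested scavenger receptors (blue), where filled points have an adjusted p under 0.05. Marco stands apart at 1.04, the other members range from 0.07 to 0.53, and the other receptors lie between -0.07 and 0.18.

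Summed over the 9 genes, the receptors amounted to 1553 ± 26.0 FPKM (SD, n = 3) in DMSO and to 1971 ± 28.7 FPKM (SD, n = 3) after DASA-58, a ratio of 1.27. As a share of all FPKM in a library they made up 0.440% ± 0.00498 and 0.552% ± 0.00929 (SD, n = 3 each). Of the difference of 418 FPKM, Cd36 accounted for 36.5%, Marco for 27.8% and Cd68 for 21.9%, and Msr1, Mrc1 and Stab1 for 5.17%, 4.92% and 3.57%. The composition of the sum shifted accordingly. Marco took between 6.83% and 7.15% of it in DMSO and between 11.1% and 11.8% after DASA-58. Cd68 took 54.9% to 57.2% and 48.5% to 49.3%. Msr1, Mrc1 and Stab1 kept shares whose ranges overlapped between the groups. Relative to Cd68 in the same library, Marco was at 12.5% ± 0.292 in DMSO and at 23.3% ± 0.848 with DASA-58 (SD, n = 3 each).

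**Figure D3:**
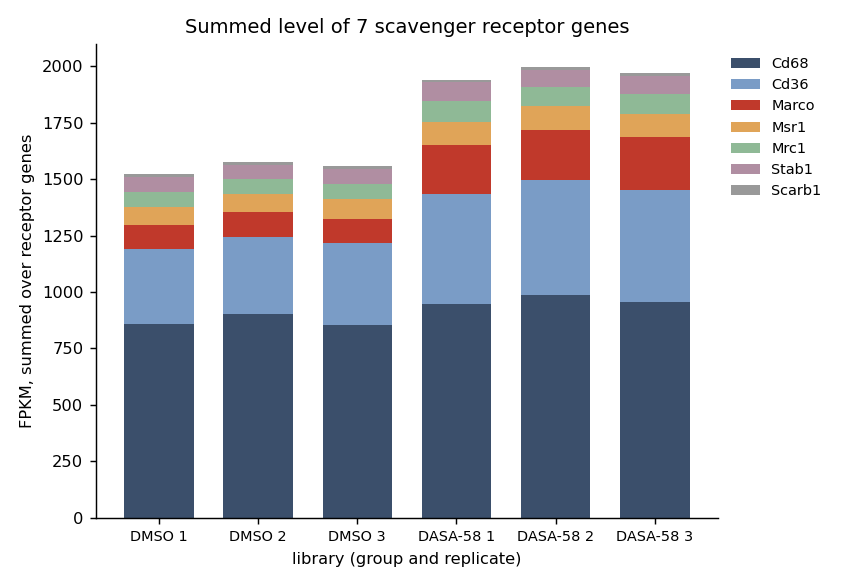
FPKM summed over the 7 receptor genes above 1 FPKM (vertical axis) in each library, stacked by gene. The sums over all 9 genes, higher than the columns by under 1 FPKM, are 1525 to 1576 FPKM in DMSO and 1942 to 1999 FPKM after DASA-58, and the bands of Cd36 and Marco widen most.

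The sequence ahead of the start site is shown for the 5 called members with an entry in RefSeq's table, namely Marco, Cd36, Mrc1, Stab1 and Cd68, as the 250 bases before the RefSeq start on GRCm38.p6, 5′ to 3′ on the strand of the gene. Capitals mark every match, on either strand, to 4 motifs of factors that act in macrophages. These are GAGGAA, a core of PU.1 sites, TGANTCA for AP-1, TTGCNNAA for C/EBP and TGACNNNGC, the core of the antioxidant response element that NRF2 binds.
Marco, chr1:120505025-120505274, minus strand: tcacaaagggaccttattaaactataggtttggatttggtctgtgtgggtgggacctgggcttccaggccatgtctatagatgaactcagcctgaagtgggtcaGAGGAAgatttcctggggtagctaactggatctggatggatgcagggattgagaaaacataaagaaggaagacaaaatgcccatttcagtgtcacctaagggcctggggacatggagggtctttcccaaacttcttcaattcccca
Cd36, chr5:17835897-17836146, minus strand: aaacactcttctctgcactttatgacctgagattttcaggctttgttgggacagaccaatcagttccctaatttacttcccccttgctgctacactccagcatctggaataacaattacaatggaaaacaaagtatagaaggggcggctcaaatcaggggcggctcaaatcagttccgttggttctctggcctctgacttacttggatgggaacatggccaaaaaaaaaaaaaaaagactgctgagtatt
Mrc1, chr2:14229164-14229413, plus strand: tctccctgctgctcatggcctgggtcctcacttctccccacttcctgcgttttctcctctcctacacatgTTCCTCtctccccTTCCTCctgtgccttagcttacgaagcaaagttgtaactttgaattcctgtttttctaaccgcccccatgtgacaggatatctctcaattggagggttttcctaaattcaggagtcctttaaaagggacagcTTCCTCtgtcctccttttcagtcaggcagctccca
Stab1, chr14:31168642-31168891, minus strand: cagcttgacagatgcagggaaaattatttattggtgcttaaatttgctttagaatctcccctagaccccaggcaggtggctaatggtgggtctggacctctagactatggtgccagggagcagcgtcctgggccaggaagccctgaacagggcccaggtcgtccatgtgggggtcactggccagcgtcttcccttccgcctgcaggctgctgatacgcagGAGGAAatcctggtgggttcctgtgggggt
Cd68, chr11:69666171-69666420, minus strand: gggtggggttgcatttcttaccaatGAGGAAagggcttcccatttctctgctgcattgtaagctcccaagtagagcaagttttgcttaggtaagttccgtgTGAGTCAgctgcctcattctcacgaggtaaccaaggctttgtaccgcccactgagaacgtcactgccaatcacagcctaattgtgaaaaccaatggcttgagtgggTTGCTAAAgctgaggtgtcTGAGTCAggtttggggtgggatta
GAGGAA occurred in 5 of the 7 member promoters that could be searched, the same 5 windows as above without Cd36 and with Olr1, against 23.3% of all 32851 RefSeq promoter windows of this length. Counted from the start, Marco held it at -146 to -141, Cd68 at -225 to -220 and Stab1 at -30 to -25, and Mrc1 held it 3 times on the reverse strand. TGANTCA was found in Cd68 at -149 to -143 and at -24 to -18, and in Olr1 at -60 to -54, against 6.75% of all windows. TTGCNNAA was found in Cd68 only, against 9.56%, and TGACNNNGC in none of the 7 windows, against 10.2%. A match is a string of letters and not a binding site, and a missing match says only that the letters are not in this window.

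Other scavenger receptors were described in the same way. A list of 18 further receptors from the recognised scavenger receptor classes had 16 in the table and 8 that passed 1 FPKM. Of these 8, 1 was higher and 0 were lower (limma with Benjamini-Hochberg adjustment), where 4.24% of all genes were higher and 7.28% lower. At an unadjusted p under 0.05, 3 were higher and 0 lower, and the share of all genes at that limit is not given here. With voom weights 1 was higher and 0 lower, where 656 of 9572 genes were higher and 1119 lower. The median log2 fold change of the 8 was 0.08. The one called was Colec12, a collagen-like receptor akin to Marco and Msr1, which rose from 32.4 ± 0.803 to 36.0 ± 1.02 FPKM (SD, n = 3 each; log2 fold change 0.15, SE 0.034, adjusted p = 0.033 with limma). Its call was lost under 11 of 19 alternatives, with any one of the 6 libraries left out among them. The most abundant of the others was Cxcl16, a membrane-bound chemokine that binds oxidised LDL, at 68.6 ± 0.473 and 73.4 ± 3.55 FPKM (SD, n = 3 each; log2 fold change 0.10, SE 0.038, adjusted p = 0.15 with limma). Scarb2, the third gene of the CD36 family and a lysosomal membrane protein, was at 22.5 ± 0.631 and 23.8 ± 0.908 FPKM (SD, n = 3 each; adjusted p = 0.27 with limma). Scarb2 is named here after its values were seen.

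Genes for the uptake of apoptotic cells, a task in which Stab1 and Cd36 take part, moved in both directions. Of 20 listed genes 15 were tested, 6 higher and 2 lower, against 4.24% and 7.28% of all genes tested. Without variance shrinkage 3 were higher and 2 lower, where 227 and 314 of all 10965 genes were. Gas6, the bridging ligand of the TAM receptors, rose by 0.45 on the log2 scale (SE 0.042, adjusted p = 7.7e-04, limma), and Mertk, one of those receptors, by 0.30 (SE 0.056, adjusted p = 0.015). The 3 chains of C1q, which coats dying cells, rose by 0.27 for C1qa, 0.31 for C1qb and 0.39 for C1qc. Itgb5, an integrin subunit that recognises the bridging protein MFG-E8, rose by 0.17. Both lower genes were integrin subunits also used by osteoclasts. Itgb3 fell by 0.86 on the log2 scale (SE 0.063, adjusted p = 2.8e-04, limma), and Itgav fell by 0.43 (SE 0.053, adjusted p = 0.0024). Rac1, the most abundant of the others, had a log2 fold change of 0.04 (adjusted p = 0.48, limma). Mertk was no longer called without DASA-58 replicate 1 (adjusted p = 0.053, limma), nor Itgb5 without DASA-58 replicate 1 or 3 (largest adjusted p = 0.059, limma).

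All 14 genes of lipid handling behind these receptors were tested. Of these 5 were higher and 3 lower, against 4.24% and 7.28% of all genes tested. Without variance shrinkage 3 were higher and 2 lower, where 227 and 314 of all 10965 genes were. Apoe, the apolipoprotein that macrophages secrete, rose from 1014 ± 23.2 to 1402 ± 49.1 FPKM (SD, n = 3 each; log2 fold change 0.47, SE 0.032, adjusted p = 2.0e-04, limma). Lipa, lysosomal acid lipase, rose by 0.32 on the log2 scale, Soat1, which esterifies cholesterol, by 0.21, Nceh1, which hydrolyses cholesterol esters, by 0.21 and Fabp5, a fatty acid binding protein, by 0.19. The cholesterol exporters went the other way. Abcg1 fell by 0.91 (SE 0.053, adjusted p = 8.3e-05, limma) and Abca1 fell by 0.28 (SE 0.051, adjusted p = 0.012), and Acsl1, which activates fatty acids, fell by 0.43. Npc2, the most abundant of the rest, had a log2 fold change of 0.06 (adjusted p = 0.21, limma). Abca1 was no longer called without DMSO replicate 1 (adjusted p = 0.051, limma), nor Soat1 without DMSO replicate 1 or DASA-58 replicate 3 (largest adjusted p = 0.054, limma).

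Among 19 transcription factors and partners that act in macrophages and lipid uptake 18 were tested. Here 4 were higher and 2 lower, against 4.24% and 7.28% of all genes tested. Cebpa rose by 0.42 on the log2 scale (SE 0.042, adjusted p = 0.0012, limma), Rxra by 0.30, Maf by 0.21 and Nfe2l2, the gene of NRF2, by 0.17 (adjusted p = 0.022). Spi1, the gene of PU.1, fell by 0.14 (SE 0.026, adjusted p = 0.014, limma) and Klf4 fell by 0.27. The call of Nfe2l2 was lost when any library but DMSO replicate 3 was left out (largest adjusted p = 0.083, limma), and that of Spi1 without DMSO replicate 1 or DASA-58 replicate 1 or 2 (largest adjusted p = 0.055), with quantile normalization and without the variance trend. With voom weights 7 of the factors were higher, where 656 of 9572 genes were. Without variance shrinkage 1 was lower, since Klf4 lost its call, where 314 of 10965 genes were lower. Pparg, known for its action on Cd36 and named here after its values were seen, was at 5.29 ± 0.147 and 4.87 ± 0.818 FPKM (SD, n = 3 each) and was not called (adjusted p = 0.52, limma).

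**Figure D4:**
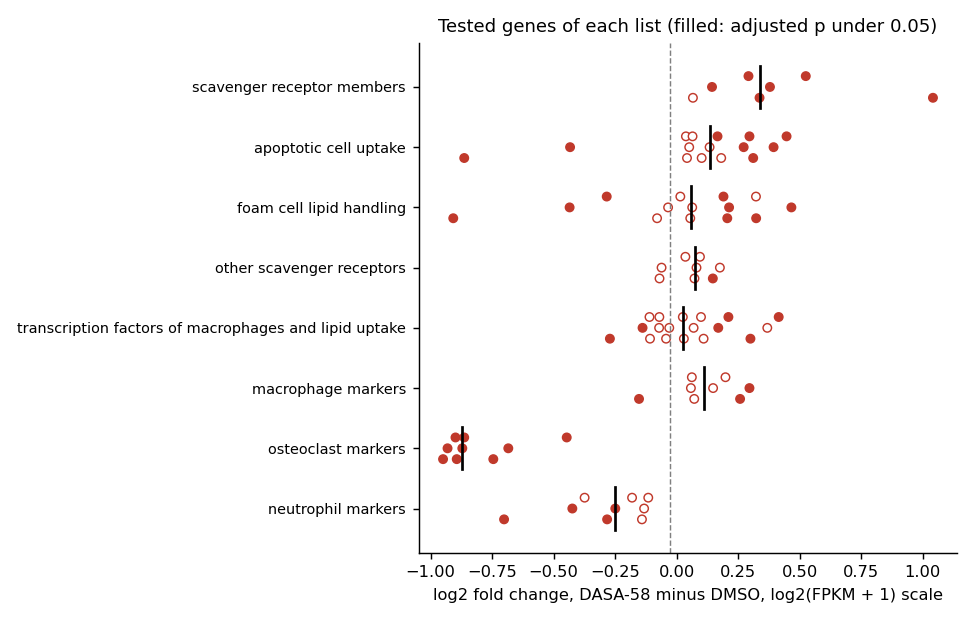
Log2 fold change, DASA-58 minus DMSO on the log2(FPKM + 1) scale, of each tested gene by list, with the list's median as a black bar and the median of all genes tested, -0.03, as a dashed line. Filled points have an adjusted p under 0.05. The receptor members have a median of 0.34, the osteoclast markers one of -0.87.

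Markers of other cell types moved in the same libraries, where 4.24% of all genes tested were called higher and 7.28% lower. The cells carried the macrophage markers in full, with 8 of 8 tested, 2 higher (Adgre1 with a log2 fold change of 0.26 and Mertk) and 1 lower (Cd14, -0.15). The most abundant of the others was Lyz2, at 15156 ± 415 and 16826 ± 1220 FPKM (SD, n = 3 each; adjusted p = 0.11, limma). Of 10 osteoclast markers 9 were tested, and all 9 were lower, by 0.45 for Nfatc1 to 0.95 for Dcstamp on the log2 scale. Their summed level was 778 to 833 FPKM in DMSO and 449 to 467 FPKM with DASA-58. The tenth, Calcr, stayed under 1 FPKM. Of 10 neutrophil markers 9 were tested and 4 were lower, namely Camp, Ngp, S100a9 and S100a8 with log2 fold changes of -0.70, -0.42, -0.28 and -0.25, and the list summed to 177 to 180 FPKM in DMSO and 139 to 145 FPKM with DASA-58. Ltf, a granule protein gene and the most abundant of the others, had an adjusted p of 0.36 (limma). S100a8 was not called with any one library left out (largest adjusted p = 0.095, limma), and Lyz2 was called without DASA-58 replicate 2 (adjusted p = 0.024, limma). The part of these shifts in the receptor values was not tested, and in bulk RNA fewer cells of a type and less RNA per cell cannot be told apart.

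Markers of several other cell types were low, while among the stromal markers the collagen genes were not. Endothelial markers, of interest for Stab1, Cd36, Scarb1 and Olr1, summed to 1.66 to 1.86 FPKM in DMSO and 1.24 to 1.43 FPKM with DASA-58 over 8 genes, with 7 of them under 1 FPKM in every library and Kdr the highest. Of the adipocyte markers, of interest for Cd36, Plin1 was at 0 in all but 1 library and the list's most abundant gene, Fabp4, was at 1.88 ± 0.118 and 2.61 ± 0.361 FPKM (SD, n = 3 each; adjusted p = 0.0502, limma, not called). Fabp4 was called higher without DASA-58 replicate 3 (adjusted p = 0.032, limma), with a pseudocount of 0.1, with quantile normalization, centring on the median or the trimmed mean, and with voom weights. Stromal markers summed to between 34.6 and 36.8 FPKM in all 6 libraries. Most of it was Col1a1 at 22.3 ± 0.920 and 23.0 ± 0.433 FPKM (SD, n = 3 each), above the level of Scarb1. Of the 3 tested genes, 0 were called by limma and 1 (Col3a1, lower) was at an unadjusted p under 0.05. Dcn, Pdgfra, Pdgfrb and Cxcl12, 4 of the 7 stromal genes in the table, stayed under 1 FPKM in every library. Dendritic cell markers (Zbtb46 the highest), T and NK cell markers (Nkg7), erythroid markers (Klf1) and mast cell and basophil markers (Mcpt8) summed to less than 2 FPKM in every library, and none was tested. B cell markers summed to 1.71 to 2.38 FPKM, nearly all of it Cd79b, which was not called (adjusted p = 0.33, limma).

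Over the 6 libraries the profile nearest to that of Marco, measured as the root mean square distance of mean-centred log2(FPKM + 1) values, was that of Ednrb at a distance of 0.0512. Next came Gsta3, a glutathione S-transferase, at 0.0805, Fpr1, a receptor for formylated peptides, at 0.107, Clec4n, the lectin receptor dectin-2, at 0.109, and A530064D06Rik at 0.133. Their log2 fold changes lay between 0.84 and 0.98. Nearest to Scarb1, the member with the lowest log2 fold change among those tested, were Nudt9, Fam149b, Rlf, Yipf4 and Rbms1, at distances of 0.0105 to 0.0171, with log2 fold changes between 0.05 and 0.08. The distance takes in the difference between the groups, so fold changes near that of the receptor follow from the choice. These distances describe 6 libraries and no more.

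**Figure D5:**
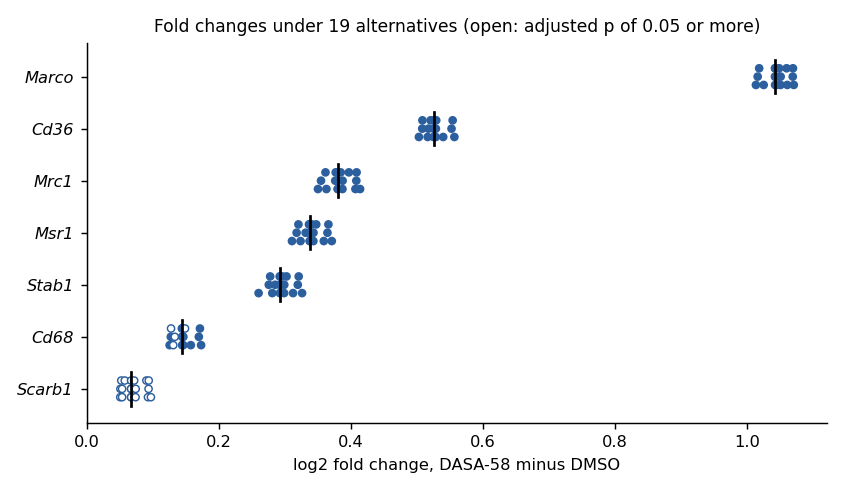
Log2 fold change of each tested receptor, DASA-58 minus DMSO, under 19 alternatives of scaling, filter, pseudocount, model and left-out library (points) and as reported (black bar), where open points have an adjusted p of 0.05 or more. Marco stays between 1.01 and 1.07, and only Cd68 has points on both sides of the limit.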

How the data were processed

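RNA of 3 DMSO and 3 DASA-58 cultures was sequenced, and the authors deposited FPKM values in 1 table with 1 column per library, of which 0 columns were left unused. The submitters' processing notes name HISAT2 2.1.0, HTSeq 0.6.0 and the build mm8, without roles, and the annotation is not given in the sources used here. Symbols were matched to GENCODE mouse release 21 for 23455 identifiers and not for 49. With the exon lengths of that release, 21367 genes (90.9%) gave fragment numbers within 0.02 of a whole number in all libraries, all 9 receptors among them, which gave the depth. A floor of 3 fragments was used for a count of 0.

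For the comparison of the groups, limma 3.58.1 was run in R 4.3.3 (lmFit, eBayes with a trend) on log2(FPKM + 1), over the 10965 genes that averaged 1 FPKM or more, with Benjamini-Hochberg adjustment. A fold change on this scale understates that of genes with low FPKM. The statistics were tested on simulated data. The receptors, the gene lists and the tests were chosen with earlier results of these data known. The genes named were the 9 receptors, in each other list every gene called and the most abundant gene not called, and the 5 profiles nearest to the highest and the lowest tested receptor, unless stated otherwise. Results for some of the listed genes are not reported here. Alternatives were pseudocounts of 0.1 and 5, no filter, a filter of 5 FPKM, 4 other scalings, no variance trend or shrinkage, a replicate block and each library left out. Voom weights on fragments were added after the data were seen. Summaries and plots came from Python 3.11.15, pandas 2.3.3 and matplotlib 3.10.9. Protein, qPCR and imaging data were not analysed here.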

Additional observations from a re-analysis of the deposited data

How the results depend on the processing

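Marco, Cd36, Msr1, Mrc1 and Stab1 kept their direction and their call under all 19 alternatives, with log2 fold changes of 1.01 to 1.07, 0.50 to 0.56, 0.31 to 0.37, 0.35 to 0.41 and 0.26 to 0.33, and Scarb1 stayed uncalled under all 19 (0.05 to 0.10). Cd68 kept its direction (0.12 to 0.17) and lost its call with no filter, no variance trend, no variance shrinkage, and without DMSO replicate 1 or 3 or DASA-58 replicate 2 or 3, so that 5 or 6 receptors were called higher and 0 lower with a library left out. With voom weights and at least 10 fragments, 7 receptors were higher, Cd163 among them, where 679 of 11602 genes were higher. Of the other scavenger receptors 0 were higher with no filter, equal library totals, no trend, no shrinkage, the replicate block or any library left out (0 to 0). Over all genes, 257 higher and 372 lower were called with no filter, 227 and 314 without shrinkage, 515 lower without a trend, 504 lower with centring on the median, 509 lower with the trimmed mean, and 272 to 375 higher and 387 to 603 lower with a library left out. The balance moved with scaling. Higher genes were 600 with the trimmed mean, 597 with centring on the median and 600 with quantile normalization, and 386 with equal totals, beside 465 as reported, and lower genes were 588 with quantile normalization and 958 with equal totals, beside 798. For most of these changes the cause was not tested. Replicate numbers did not pair the libraries, with correlations of deviations between -0.0162 and 0.0157 for equal numbers, and with the replicate block 378 genes were higher and 579 lower, while 6 receptors were called as before. Genes below about 1 FPKM, here Cd163 and Olr1, are limited by depth.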
